A study of Rattus norvegicus with 6 samples.

Results

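The hearts of rats with chronic colitis were searched for miRNAs that are usually used as markers of liver, gut, epithelium, endocrine cells and brain. The set held 10 of the 761 rat miRNAs on the array, chosen by name and by their main arm: rno-miR-122-5p for liver, rno-miR-192-5p, rno-miR-194-5p and rno-miR-215 for gut, liver and kidney epithelium, rno-miR-375-3p for endocrine cells, rno-miR-200a-3p, rno-miR-200b-3p and rno-miR-200c-3p for epithelium, and rno-miR-124-3p and rno-miR-9a-5p for brain. The prefix for rat is left out from here on. All 10 had 4 spots on each array. Of these miRNAs, 5 were bright enough to be tested, 3 were seen on no array, and 2 were seen on a single DSS array. As normalized here, miR-192-5p fell 2.59-fold and miR-194-5p fell 2.50-fold in DSS hearts. Neither fall was called with scaling to the spike-in probes or to the 5S rRNA probes, or without normalization between arrays. With the spike-in probes the log2 differences were -0.10 and -0.027, while the median of all tested miRNAs stood at 1.14. On DSS 14 both miRNAs lay close to the empty spots. miR-200b-3p was detected on the 3 DSS arrays and on no control array, with a call close to the threshold that rests on how detection was set. miR-215 and miR-9a-5p did not pass the test.

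Total RNA came from the hearts of adult male Sprague Dawley rats, bought at 6 weeks of age, with 3 animals per group and 1 array per heart. DSS rats drank 3% dextran sodium sulfate, an agent that injures the colon lining, in 4 cycles of 5 days with 9 days of plain water between them over 8 weeks, and control rats (animals 9, 10 and 11) received none. DSS animals are numbered 13, 14 and 16 here, as in the labels. The heart was taken as a whole tissue, so fewer cells of a type and less RNA per cell cannot be told apart.

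A mature miRNA is a short RNA that guides Argonaute proteins to mRNAs, mainly through its seed, bases 2 to 8 from the 5′ end. miR-122 is the dominant miRNA of hepatocytes. miR-192, miR-194 and miR-215 come from a pair of gene clusters that hepatocyte nuclear factors switch on in gut, liver and kidney. The miR-200 family keeps cells epithelial by repressing the ZEB transcription factors. miR-375 marks pancreatic islet and other endocrine cells. miR-124 and miR-9 are made in neurons and their precursors. Cardiac muscle is instead known for miR-1, miR-133, miR-208 and miR-499.

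The sequences of the members on which the results turn are given with the seed in capitals. miR-192-5p and miR-215 carry 1 seed and differ elsewhere by an edit distance of 4 bases, and miR-194-5p, which is made with either of them, has a seed of its own.
miR-192-5p: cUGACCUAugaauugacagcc
miR-215: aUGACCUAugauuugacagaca
miR-194-5p: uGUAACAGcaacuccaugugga
In the epithelial family miR-200b-3p and miR-200c-3p share a seed and lie at an edit distance of 3. The seed of miR-200a-3p differs from it by the substitution C4U (from miR-200a-3p to miR-200b-3p, counted from base 1 of the miRNA). These 3 are shown because the b form was detected in all 3 DSS hearts, whereas the a and c forms were too seldom detected to be tested.
miR-200a-3p: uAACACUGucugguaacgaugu
miR-200b-3p: uAAUACUGccugguaaugaugac
miR-200c-3p: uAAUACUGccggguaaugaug
The brain member that was seen on the arrays has a seed that no other member holds.
miR-9a-5p: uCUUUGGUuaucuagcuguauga

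Sequences are the targets listed for the probes in the array files, and 7 of the 10 members were also found in the RefSeq miRNA table (GRCr8 assembly). In GRCr8, miR-192-5p lies at chr1:212994232-212994252 and 1 copy of miR-194-5p at chr1:212994038-212994059, both on the plus strand with 172 bases between them and outside any other annotated gene. The other copy of miR-194-5p, at chr13:99382730-99382751, lies 251 bases from miR-215 at chr13:99383003-99383024, both on the plus strand inside the protein-coding gene Iars2. The miR-194-5p probe reads both copies together. miR-200c-3p lies on the minus strand at chr4:159209969-159209989, 407 bases from its relative miR-141-3p. miR-9a-5p has 3 copies in GRCr8, 1 on chromosome 1 and 2 on chromosome 2.

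Detection on an array meant that at least 2 of the 4 spots exceeded the dim background of the array by over 3 SD (the SD being that of the empty spots) and had a coefficient of variation (CV) below 0.5. The 632 empty spots show how strict that limit was, since between 1.27% and 32.1% of them lay above it, the most on DSS 14 (32.1%) and control 10 (23.4%). A second limit, 3 SD above the median empty spot, is therefore given beside the first. The heart markers were as follows: miR-1-3p, miR-133a-3p, miR-133b-3p and miR-499-5p were detected on all 6 arrays, whereas miR-208a-3p was detected on 1 and miR-208b-3p on none. Blood was represented by miR-451, miR-486 and miR-150 on 6 arrays, miR-223 on 5, miR-142-3p on 1 and miR-144-3p on none. Of the 4 blood miRNAs that could be tested, 2 were higher and 2 lower in DSS hearts after adjustment, where 49.3% of all tested miRNAs were called (20.9% higher and 28.4% lower). The part of blood in the members' results was not tested.

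Most members were dim in heart. In control hearts 10 of the 30 pairs of member and array were detected, which is 33.3%, the same share as over all 761 miRNAs (33.3%). In DSS hearts 15 of 30 pairs were detected (50% against 37.7% over all miRNAs). Counted from the median empty spot, 7 of 30 pairs were detected in each group. By array, 3, 3 and 4 members were detected in controls 9, 10 and 11, and 7, 4 and 4 in DSS 13, 14 and 16. With the second limit these numbers were 2, 2 and 3 in controls and 6, 0 and 1 in DSS hearts, so that no member stood above it on DSS 14. DSS 13 held the most members by either limit, and it also had the most detected miRNAs of all arrays (365 of 761, against 223 to 283 on the others).

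**Figure D1:**
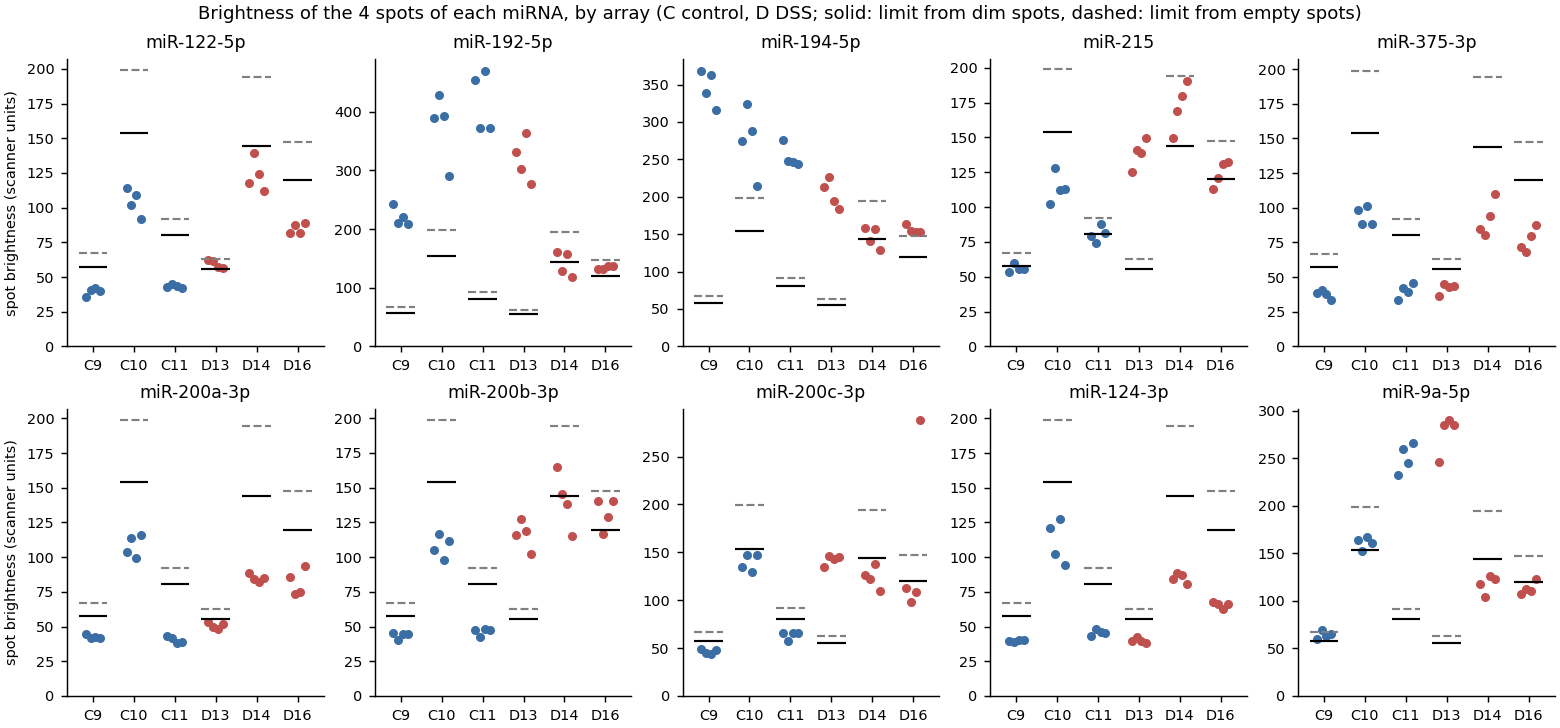
Brightness of the 4 spots of each of the 10 miRNAs in scanner units (linear axis from 0), by array, with controls (C) in blue and DSS hearts (D) in red. The solid bar is the detection limit above the dim spots and the dashed bar the limit above the median empty spot. miR-192-5p and miR-194-5p stand clear of both limits in all 3 controls, whereas miR-375-3p, miR-200a-3p and miR-124-3p stay at or under the solid bar on every array.

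**Figure D2:**
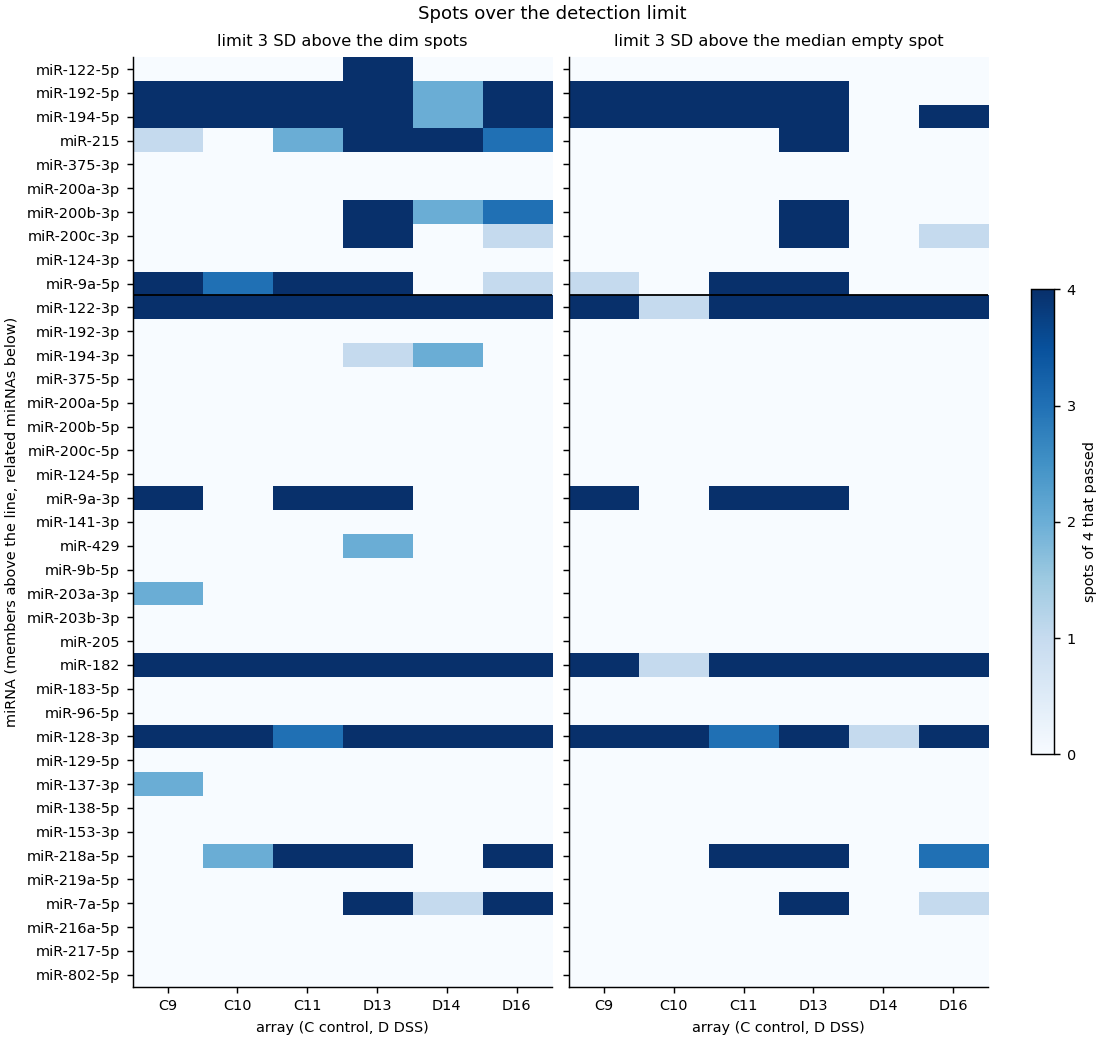
Number of spots, of 4, over the detection limit for the 10 members (above the line) and 29 related miRNAs (below it), by array. With the limit based on empty spots (right) the 3 controls and DSS 13 are dark for miR-192-5p and miR-194-5p, DSS 16 is also dark for miR-194-5p, DSS 13 is dark for miR-215 and miR-200b-3p and miR-200c-3p, and control 11 and DSS 13 are dark for miR-9a-5p.

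The comparison between the groups asked which miRNAs differ in the heart during chronic colitis. It was made with limma on normalized log2 signal over the 282 miRNAs detected on at least 3 arrays. Among these, 139 (49.3%) had an adjusted p under 0.05, 59 higher (20.9%) and 80 lower (28.4%). The members gave 3 of 5, with 1 higher and 2 lower, a count too small to set apart from that background. The 1 called higher, miR-200b-3p, had entered the test only through the DSS arrays. At an unadjusted p under 0.05 limma took 3 of the 5, against 58.5% of the 282, and the methods' t-test took 3 of the 5, against 55%. Of all 10 members, 6 had a positive and 4 a negative difference, and the median difference was 0.072 on the log2 scale against 0.0037 over the 761 miRNAs. The values of the groups did not overlap for 4 of the 10 members, miR-122-5p, miR-192-5p, miR-194-5p and miR-200b-3p, and for 37.7% of all 761 miRNAs (3 of the 5 tested members, against 66.3% of those tested).

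miR-192-5p was detected on all 6 arrays and fell in DSS hearts. Its normalized log2 signal was 8.54, 8.72 and 8.68 in controls 9, 10 and 11, and 7.83, 6.81 and 7.19 in DSS 13, 14 and 16. Every DSS heart lay below every control, with DSS 13 the nearest to the controls. The means were 8.65 ± 0.10 (SD, n = 3) and 7.27 ± 0.52 (SD, n = 3). The difference was -1.37 (SE 0.28, 95% confidence interval -2.04 to -0.71) with a limma adjusted p of 0.0153. Before normalization the spots stood 174, 235 and 368 scanner units above the median empty spot in the controls, and 276, 6.06 and 39.3 units in the DSS hearts. Without normalization DSS 13 therefore lay among the controls, and DSS 14 lay close to its own empty spots. With scaling to the spike-in probes the difference was -0.10 (adjusted p = 0.867) while the median of all tested miRNAs stood at 1.14, so that miR-192-5p was 1.24 below that median (-1.24). Without DSS 16 the adjusted p was 0.0593.

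miR-194-5p, which is cut from the same transcripts as miR-192 and miR-215, fell by a like amount. Its normalized log2 signal was 9.19, 8.23 and 8.04 in the controls and 7.28, 6.83 and 7.39 in the DSS hearts. Again the groups did not overlap, and control 9 stood above the other controls. The means were 8.49 ± 0.61 and 7.17 ± 0.30 (SD, n = 3 each). The difference was -1.32 (SE 0.34, 95% confidence interval -2.13 to -0.51, limma adjusted p = 0.0213). The spots stood 300, 135 and 206 scanner units above the median empty spot in controls and 162, 10.8 and 61.2 units in DSS hearts. The adjusted p was 0.0727 without DSS 14 and 0.0625 without DSS 16, and the difference was -0.027 (adjusted p = 0.968) with scaling to the spike-in probes, or -1.16 relative to the median of all tested miRNAs.

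miR-215, the seed mate of miR-192-5p, was dim and did not pass the test. Its normalized log2 signal was 6.88, 6.59 and 6.90 in controls and 7.23, 6.92 and 6.88 in DSS hearts. DSS 16 lay among the controls, and the other DSS hearts lay above them. The difference was 0.22 (SE 0.19, 95% confidence interval -0.23 to 0.68, limma adjusted p = 0.343), so a rise of up to 0.68 or a fall of up to 0.23 on the log2 scale is within the interval. It was detected on 1 control array and on the 3 DSS arrays, and with the second limit on DSS 13 alone. It was called higher without normalization between arrays (0.73, adjusted p = 0.0471) and with scaling to the spike-in probes (1.51, adjusted p = 0.00289) or to the 5S rRNA probes (1.15, adjusted p = 0.0135). In that order the median of all tested miRNAs stood at 0.36, 1.14 and 0.78, and miR-215 was 0.37 above it in each.

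The estimates of the seed mates differed in sign, but the interval of miR-215 (-0.23 to 0.68) spans both signs, so an opposite change is not established. Since miR-215 was not detected on controls 9 and 10, the size of the contrast between the seed mates is not given. For the pair detected on all 6 arrays, the log2 signal of miR-192-5p minus that of miR-194-5p within each array was 0.16 ± 0.70 in controls and 0.11 ± 0.39 in DSS hearts (SD, n = 3 each), a change of -0.047 (2-sided exact permutation p = 0.9, and 0.9 adjusted over the 4 pairs computed, where 3 against 3 arrays cannot go below 0.1). A difference within an array does not depend on how arrays are scaled by a constant.

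**Figure D3:**
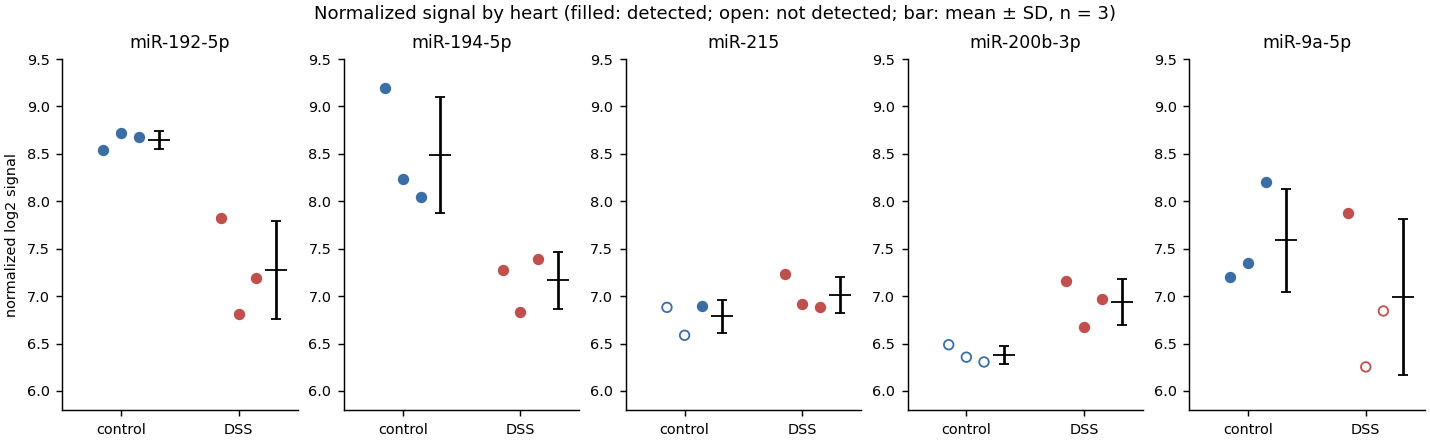
Normalized log2 signal of the 5 tested members in the 3 control (blue) and 3 DSS (red) hearts, with filled circles for hearts in which the miRNA was detected, open circles where it was not, and black bars for mean ± SD. miR-192-5p and miR-194-5p are lower in every DSS heart, miR-200b-3p is higher in every DSS heart, and the groups overlap for miR-215 and miR-9a-5p.

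miR-122-5p, the hepatocyte miRNA, was near background throughout. Its log2 signal was 6.22, 6.14 and 6.20 in controls and 6.53, 6.53 and 6.35 in DSS hearts. These values did not overlap, but only on DSS 13 did it pass the detection limit, and on no array did it pass the limit counted from the empty spots. On 5 of the 6 arrays its spots were dimmer than the median empty spot. It was left out of the test, and a fit over every miRNA probe, in which 9.72% of 761 were called, gave a difference of 0.28 with an adjusted p of 0.0564. Its other arm behaved differently in brightness. miR-122-3p was detected on all 6 arrays, with log2 signals of 7.86, 7.74 and 8.29 in controls and 8.44, 9.01 and 8.27 in DSS hearts. DSS 16 lay just below control 11, and the difference of 0.61 (SE 0.26, 95% confidence interval -0.013 to 1.24) did not pass the test (limma adjusted p = 0.0909).

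In the epithelial family only miR-200b-3p was detected often enough to be tested. Its log2 signal was 6.49, 6.36 and 6.31 in controls and 7.16, 6.68 and 6.97 in DSS hearts. All DSS hearts lay above all controls, with the smallest gap at DSS 14. The means were 6.38 ± 0.09 and 6.94 ± 0.24 (SD, n = 3 each), a difference of 0.55 (SE 0.19, 95% confidence interval 0.10 to 1.01, limma adjusted p = 0.0494). It was detected on no control array and on all 3 DSS arrays, so it entered the test only through the group where it was bright, and its p-value does not stand apart from that selection. Against the lowest detectable signal of the control arrays, by the first limit, the mean of the DSS hearts was 1.21-fold higher. This ratio of means carries no error, and DSS 14 (6.68) lay below that signal on controls 10 (6.72) and 11 (6.71). On DSS 14 miR-200b-3p passed with 2 of 4 spots. Counted from the median empty spot, its spots stood at -3.16, -32.6 and -1.48 scanner units in controls and at 73.6, 5.72 and 36.8 units in DSS hearts. By that limit it was detected on DSS 13 alone, and the ratio was below 1. The call was close to the threshold: adjusted p was 0.0900, 0.137 and 0.187 without control 9, 10 and 11, 0.0564 in the fit over every probe and 0.0503 with the median of the spots. Without any 1 of the DSS arrays it was detected on 2 arrays and could not enter the test.

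Its relatives were not tested. miR-200c-3p had log2 signals of 6.64, 6.92 and 6.64 in controls and 7.32, 6.41 and 7.01 in DSS hearts. DSS 14 was the lowest of the 6 and DSS 13 the highest, so the groups overlapped. It was detected on DSS 13, and on DSS 16 its mean rested on 1 spot of 288 units beside 3 spots of 97.8 to 113. In the fit over every probe its difference was 0.18 (95% confidence interval -0.43 to 0.79, adjusted p = 0.667). miR-200a-3p was detected on no array, with log2 signals between 5.93 and 6.37 and a difference of 0.019 (95% confidence interval -0.29 to 0.33 in the fit over every probe). The relatives outside the set were also dim: miR-141-3p was detected on no array and miR-429 on DSS 13 alone. Since neither miR-200b-3p nor miR-200c-3p was detected in controls, no contrast between these seed mates is given.

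miR-375-3p, the endocrine member, lay below the median empty spot on all 6 arrays. Its log2 signals ran from 5.93 to 6.17, and the difference in the fit over every probe was 0.12 (95% confidence interval -0.037 to 0.28, adjusted p = 0.264). Any level in these hearts was not detectable with these probes.

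Of the brain members, miR-124-3p was likewise below the median empty spot on all 6 arrays, with log2 signals between 5.96 and 6.23 and a difference of -0.16 (95% confidence interval -0.35 to 0.023 in the fit over every probe, adjusted p = 0.208). miR-9a-5p was brighter and scattered between animals. Its log2 signal was 7.21, 7.35 and 8.21 in controls and 7.88, 6.25 and 6.84 in DSS hearts. Control 11 and DSS 13 were the highest, so that the groups overlapped and the range within each exceeded the difference between the means. It was detected in 3 controls and in DSS 13, and the difference was -0.60 (SE 0.46, 95% confidence interval -1.70 to 0.51, limma adjusted p = 0.304). With the limit counted from the empty spots it was detected on control 11 and DSS 13. With scaling to the spike-in probes, which moved the median of all tested miRNAs to 1.14, the difference was 0.84 (adjusted p = 0.110), or -0.30 relative to that median.

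The other arm, miR-9a-3p, comes from the same hairpins and was called lower. Its log2 signal was 7.29, 6.73 and 7.37 in controls and 6.72, 5.99 and 6.14 in DSS hearts. The DSS hearts lay below the controls, with DSS 13 and control 10 nearly equal. The difference was -0.84 (SE 0.28, 95% confidence interval -1.50 to -0.19, limma adjusted p = 0.0414), with detection on 2 control arrays and 1 DSS array. Its size varied with the background correction, at -3.16 with plain subtraction of the dim background and -0.96 with none. Of the runs without 1 array only 3 could test it, and 1 of these called it. The adjusted p was 0.0776 without DSS 14 and 0.103 without DSS 16, and scaling to the spike-in probes, with the median of all tested miRNAs at 1.14, gave 0.31 (adjusted p = 0.599).

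**Figure D4:**
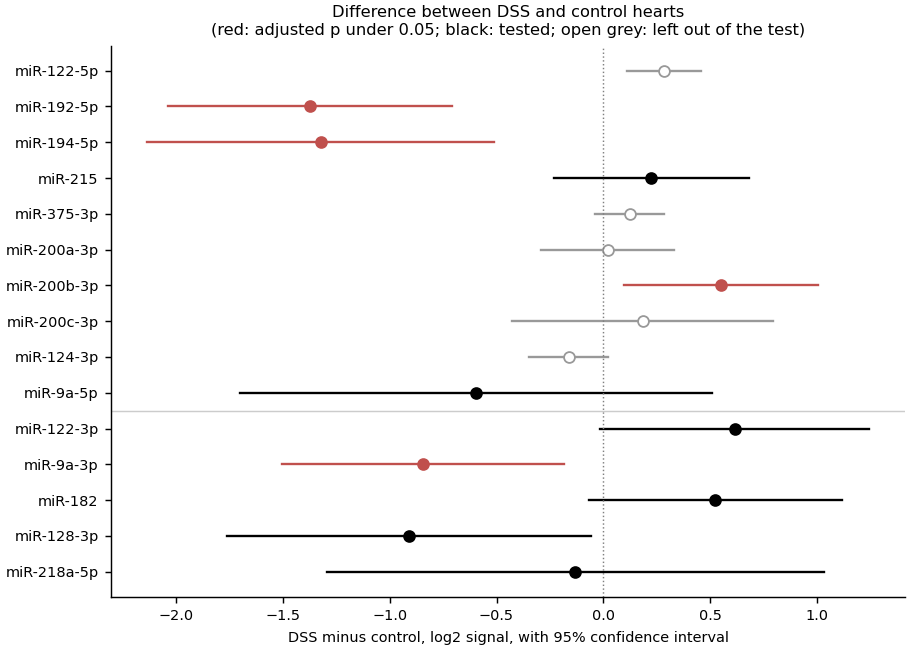
Difference between DSS and control hearts (log2 signal, n = 3 each) with its 95% confidence interval for the 10 members and, below the line, the 5 related miRNAs that could be tested. Red marks an adjusted p under 0.05, black a tested miRNA without a call, and open grey circles the members left out of the test, drawn from the fit over every probe. The intervals of miR-192-5p and miR-194-5p lie below 0, and that of miR-200b-3p lies just above it.

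A wider list of 29 related miRNAs was mostly not detected. It held 9 other arms of the members, 3 family relatives, 6 further epithelial miRNAs, 8 further brain miRNAs and 3 of pancreas or liver. Of these, 19 were detected on no array, 5 on 1 or 2, and 5 could be tested, against 48.1% of all 761 miRNAs detected on no array. Of the 5, limma called none higher and 1, miR-9a-3p, lower, against 49.3% called among all 282 miRNAs (20.9% higher and 28.4% lower). The limma unadjusted p was under 0.05 for 2 of the 5, against 58.5% of the 282. The 3 pancreas and liver miRNAs, miR-216a-5p, miR-217-5p and miR-802-5p, were detected on no array.

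The tested relatives that were not called as reported are given by value. Under the alternatives miR-182 and miR-128-3p were called in 5 of 27 each, and miR-218a-5p in 1 of 25. The difference then ran from 0.42 to 1.81 for miR-182 and from -1.81 to 0.27 for miR-128-3p. miR-182, a miRNA of sensory cells and epithelia, had log2 signals of 7.63, 7.63 and 7.64 in controls and 7.65, 8.40 and 8.42 in DSS hearts. DSS 13 lay with the controls, and the other DSS hearts lay clearly above them (difference 0.52, SE 0.25, limma adjusted p = 0.114). Its cluster partners miR-183-5p and miR-96-5p were detected on no array. miR-128-3p, which is abundant in neurons, had 8.75, 9.27 and 8.60 in controls and 8.64, 7.38 and 7.88 in DSS hearts. Here too DSS 13 lay among the controls (difference -0.91, SE 0.36, limma adjusted p = 0.0709). miR-218a-5p, which is encoded within the Slit2 and Slit3 genes, had 6.95, 7.24 and 8.03 in controls and 8.17, 6.42 and 7.23 in DSS hearts, with a difference of -0.13 (SE 0.49, limma adjusted p = 0.835). Like miR-9a-5p, it was highest on control 11 and DSS 13.

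The processed values deposited by the authors come from the same 6 arrays and are no separate evidence. They are given for the members already called on these arrays. Their linear values of miR-192-5p were 354, 387 and 346 in controls and 168, 39 and 62 in DSS hearts. miR-194-5p had 582, 242 and 204 in controls and 104, 40 and 83 in DSS hearts. miR-200b-3p had 10, 6 and 8 in controls and 52, 31 and 54 in DSS hearts. Its control values lay below the median processed value of those arrays (18.5, 15 and 16.5). DSS 13 was the highest DSS heart for miR-192-5p and miR-194-5p. On the scale log2(value + 1) the differences were -2.27, -2.11 and 2.36. On the scale log2(value + 50) they were -1.67, -1.56 and 0.71. All 3 were called on both scales, where 143 and 153 of all 282 tested miRNAs were called. As before, miR-200b-3p was in the test only through the DSS arrays.

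**Figure D5:**
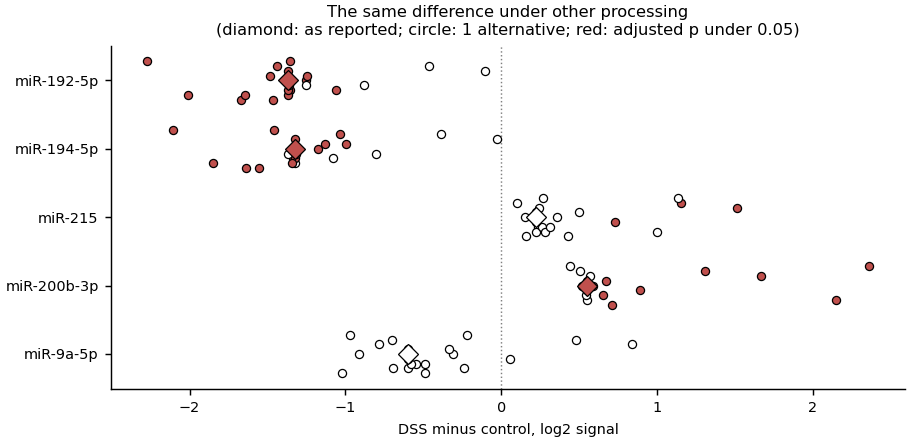
The DSS minus control difference of the 5 tested members as reported (diamonds) and under each alternative of the processing (circles), in log2 signal, with red for an adjusted p under 0.05. miR-192-5p runs from -2.27 to -0.10 and miR-194-5p from -2.11 to -0.027, both below 0 in every alternative run. With the spike-in probes both lie below 0 by less than their SE. miR-215 and miR-200b-3p are above 0 in each alternative in which they could be tested, and miR-9a-5p lies on both sides.

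Across the 6 arrays, the miRNAs outside the lists whose log2 signal followed miR-192-5p most closely were miR-676 (Pearson's r = 0.973), miR-324-5p (0.970) and miR-342-3p (0.968), out of 272. For miR-194-5p they were miR-331-3p (0.993), miR-3068-5p (0.992) and miR-101b-3p (0.992). All of these were lower in DSS hearts after adjustment, as were 28.4% of all tested miRNAs. They had been picked for likeness to members that were themselves called lower. Since r was above 0.9 for 35 and 66 of the 272 miRNAs, and all points share the same 6 arrays and the same split into groups, these values describe the arrays only. Between miR-192-5p and miR-194-5p r was 0.812.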

How the data were processed

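For each of the 6 arrays the authors deposited scanner intensity values, the median brightness and SD of every spot, on a linear scale with background included. They also deposited processed intensities for 810 probes (49 controls) after background subtraction and a LOWESS filter. How spots were combined is not stated in the paper. Total RNA had been tailed, ligated to a tag and stained with 1 dye.

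Background was corrected with normexp (offset 50) in limma 3.58.1 (R 4.3.3), the 4 spots of a probe were averaged as log2 values, and arrays were normalized by cyclic LOWESS across the miRNA probes (span 0.7, 3 iterations). The dimmest 25% of miRNA spots of an array gave, by their median, the dim background. The 282 miRNAs that passed detection on 3 or more arrays were fitted with lmFit and eBayes and adjusted by Benjamini-Hochberg at 0.05. The DSS mean of miR-200b-3p was set against a floor averaged over the control arrays. Per array the floor was the lowest signal among detected miRNAs or the probe's own, whichever was higher. The number of arrays limits the precision. Nothing names a slide or scan date, and each array is 1 animal. Differences between 4 pairs of probes, chosen after their values were seen, had exact permutation tests over the 20 arrangements of the arrays. Values are given only for the pair detected on all arrays. With 20 arrangements no p could fall under 0.1, so these tests could not reach 0.05 for any of the 4 pairs. The test was tried on simulated data, with changes larger than those of the members and set only in brighter miRNAs. That trial does not bear on calls of dim members. Figures used Python 3.11.15 with matplotlib 3.10.9.

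All members, and the relatives detected on at least 3 arrays, are named. For members detected on all 6 arrays the 3 most similar miRNAs are given. The members and lists were chosen with earlier results of these data known. Alternatives covered background, normalization, the authors' values, the filter and detection limit, the summary of spots, the test, and each array left out.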

Additional observations from a re-analysis of the deposited data

How the results depend on the processing

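The sign held under all alternatives run for miR-192-5p (-2.27 to -0.10, called in 16 of 21) and miR-194-5p (-2.11 to -0.027, 14 of 21). It also held for miR-200b-3p (0.44 to 2.36, 10 of 17) and miR-215 (0.10 to 1.51, called in 3 of 20), and turned for miR-9a-5p. The values of -0.10 and -0.027, both with the spike-in probes, were smaller than their SE (0.46 each) and show no direction. The same holds for 0.10 of miR-215, without control 10 (SE 0.22). miR-200b-3p was in the test only through the DSS arrays. The 17 leave out the runs without a DSS array and the filter for all 6 arrays, where it could not be tested. It also could not be tested with the limits of 5 SD, the median empty spot or the 95th percentile of empty spots, or where all spots had to pass. The median of all tested miRNAs was 1.14 with the spike-in probes, 0.78 with the 5S rRNA probes and 0.36 without normalization between arrays. In that order miR-192-5p stood at -0.10, -0.46 and -0.88, miR-194-5p at -0.027, -0.38 and -0.81, miR-215 (then called) at 1.51, 1.15 and 0.73, miR-200b-3p (still called) at 1.67, 1.31 and 0.89, and miR-9a-5p at 0.84, 0.48 and 0.059. Relative to the median, the differences were -1.24, -1.16, 0.37, 0.53 and -0.30 in each. These could not differ between the settings, which move all miRNAs of an array by the same constant. Higher calls made up 92.5%, 90.2% and 68.1% of all calls against 42.4% as reported.

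At unchanged differences, the methods' t-test gave adjusted p of 0.0608 for miR-192-5p (-1.37), 0.0701 for miR-194-5p (-1.32) and 0.0642 for miR-200b-3p (0.55). It called 0 members and 0 miRNAs after adjustment, with 3 and 155 at an unadjusted p under 0.05. With every probe tested 1 member and 74 miRNAs were called, with miR-194-5p at -1.32 (adjusted p = 0.0625). miR-200b-3p was also lost with 75th percentile scaling (0.52, adjusted p = 0.0870) and with the median of the spots (0.55). The number of members detected on at least 3 arrays was 5 as reported, 2 with a limit of 5 SD or with the limit from the median empty spot, and 3 where all spots had to pass.

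Leaving out each array in turn gave 0 to 2 called members and 0 to 140 called miRNAs. The totals were 82 without control 9, 90 without control 11, 66 without DSS 14 (1 member) and 0 without DSS 16 (124 at an unadjusted p under 0.05, 2 of them members). The difference ran from -1.64 to -1.06 for miR-192-5p, from -1.64 to -1.03 for miR-194-5p and from 0.44 to 0.57 for miR-200b-3p. The cause of these changes was not tested. No paired analysis was possible because no number occurs in both groups. The members that were not tested moved by more than 1 SD in 28 comparisons of a member with a setting and by less in 52. Signal over background limits every member, and for miR-192-5p and miR-194-5p it limits the DSS values, since on DSS 14 they stood 6.06 and 10.8 scanner units above the median empty spot and neither passed the limit counted from there. The ratio of 1.21 for miR-200b-3p fell below 1 with a limit of 5 SD or the limit from the median empty spot.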
